A study of Mus musculus with 8 samples.

Results

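The nuclear genes of the mitochondrial respiratory chain and of the ATP synthase were followed in the hippocampus of male mice after neonatal exposure to clothianidin. Members were the rows of the expression matrix whose gene symbol begins with Nduf, Sdha to Sdhd, Uqcr, Cox followed by a digit, or Atp5. The rule, which uses no measured value, gave 105 genes of 19505 distinct symbols, or 105 of 22206 rows, and 0 of these genes had several rows. They comprised 36 genes of complex I, 4 of complex II, 8 of complex III, 20 of complex IV, 17 of complex V (the ATP synthase) and 20 assembly factors named by the same prefixes. Ndufa4 and Ndufa4l2 were counted with complex IV. Dams received the neonicotinoid insecticide clothianidin (CLO), an agonist of nicotinic receptors for acetylcholine, at 65 mg/kg/day, or vehicle. They were dosed by mouth from postnatal day 1 to 4; the labels name the dams and not the pups as dosed, and give 65 mg/kg/day as the no-observed adverse effect level. Male offspring were sampled at 3 or 10 weeks, which gave 4 groups of 2 arrays: vehicle at 3 weeks, clothianidin at 3 weeks, vehicle at 10 weeks and clothianidin at 10 weeks. The labels name no strain or genotype. They also leave unsaid whether different arrays carry RNA of different animals or litters, so p-values speak only of the spread between these 8 samples, and that spread may be technical.

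Complexes I and II pass electrons from NADH and succinate to ubiquinone, complex III passes them on to cytochrome c, and complex IV reduces oxygen. Complexes I, III and IV pump protons out of the matrix, and complex V lets them return and makes ATP. Neurons draw most of their ATP from this chain to restore ion gradients and to run synapses, and all complexes except complex II also hold subunits encoded by mitochondrial DNA.

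Of 8 markers of hippocampal excitatory neurons 6 were measured, and these read above the lower quartile of all arrays. So did the 4 measured markers each of striatum and thalamus, so this reading does not tell the tissues apart. The array titled 3wk Ctrl-1, here vehicle array 1 at 3 weeks, stood apart from the other arrays. The SD of its log2 values over all rows was 3.15, against 3.26 to 3.39 on the other arrays. Ttr, a transcript of the choroid plexus, read 19.16 on vehicle array 2 and 18.82 on clothianidin array 1 at 3 weeks and 18.25 on clothianidin array 1 at 10 weeks. It read 5.24 to 7.37 on the other 5 arrays. All 7 measured markers of choroid plexus and ependyma, Ttr among them, read higher on the arrays with high Ttr than on the other 5. Kcnj13, for example, read 12.02, 11.68 and 11.99 on the former and 5.56 to 7.09 on the latter. In bulk tissue, fewer cells of a type and less RNA per cell cannot be told apart.

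The members were bright genes. Their median level over the 8 arrays was 11.40 on the log2 intensity scale, from 3.60 to 17.23, against 5.76 for all rows. On all 8 arrays, 90 of the 105 members read above that array's median, and 0 read below its lower quartile on all 8. All 17 complex V genes and 35 of the 36 complex I genes were among the 90, against 14 of the 20 assembly factors. The dimmest were isoforms with restricted expression and an assembly factor of complex II. Sdhaf4 lay below the lower quartile on 7 arrays, Cox8b on 6, Ndufa4l2 on 4, and Cox4i2 and Cox6b2 on 2 each. The median SD between the 2 arrays of a group was 0.36 for the members and 0.30 for all rows.

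The promoters of these genes are of interest because many respiratory genes share binding sites for the nuclear respiratory factors. RefSeq promoters of GRCm38.p6, from 250 bases before to 50 bases after the start site, were listed for 87 of the 105 members. The NRF1 letters, which are GCGC, any 1 base and then TGCGC, searched like all motifs here on both strands, were present in 21 of these 87 (24.1%), against 5.19% of 27025 genes in the promoter table and 7.63% of 15691 genes on the array. The ETS letters CCGGAAG, as bound by GABPA, were in 26 members (29.9%), against 9.93% and 13.2%. The YY1 letters AANATGGCG were in 13 members (14.9%), against 2.76% and 3.79%. The GC box letters GGGCGG were in 43 members (49.4%), against 38.2% and 51.2%. The motifs were counted separately and may overlap. A match describes the letters in this window and no bound factor. The promoters below show the range, with the NRF1 letters in capitals. Sdha had 3 matches, the most printed here, Uqcrc1 had 2 and Ndufa5 had 1, while Cox7b2, the member that changed with age, had 0.
Sdha promoter, chr13:74350191-74350490, minus strand: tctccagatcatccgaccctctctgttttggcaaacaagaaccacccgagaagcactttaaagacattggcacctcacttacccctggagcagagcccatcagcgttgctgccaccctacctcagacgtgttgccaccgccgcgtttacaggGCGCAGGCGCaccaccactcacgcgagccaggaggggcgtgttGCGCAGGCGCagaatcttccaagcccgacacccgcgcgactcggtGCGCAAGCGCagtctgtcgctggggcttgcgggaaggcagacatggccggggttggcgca
Uqcrc1 promoter, chr9:108936398-108936697, plus strand: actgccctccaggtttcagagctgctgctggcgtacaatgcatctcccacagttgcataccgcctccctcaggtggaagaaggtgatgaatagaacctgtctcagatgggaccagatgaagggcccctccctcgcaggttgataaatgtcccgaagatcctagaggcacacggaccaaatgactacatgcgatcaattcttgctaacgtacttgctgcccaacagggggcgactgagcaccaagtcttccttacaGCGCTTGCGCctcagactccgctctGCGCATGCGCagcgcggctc
Ndufa5 promoter, chr6:24527641-24527940, minus strand: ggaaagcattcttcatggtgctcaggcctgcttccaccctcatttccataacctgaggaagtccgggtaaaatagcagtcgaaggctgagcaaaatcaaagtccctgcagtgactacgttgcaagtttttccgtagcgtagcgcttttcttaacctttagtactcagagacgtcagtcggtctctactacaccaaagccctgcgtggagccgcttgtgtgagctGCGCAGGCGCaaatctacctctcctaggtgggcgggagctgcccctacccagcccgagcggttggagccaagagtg
Cox7b2 promoter, chr5:71548156-71548455, minus strand: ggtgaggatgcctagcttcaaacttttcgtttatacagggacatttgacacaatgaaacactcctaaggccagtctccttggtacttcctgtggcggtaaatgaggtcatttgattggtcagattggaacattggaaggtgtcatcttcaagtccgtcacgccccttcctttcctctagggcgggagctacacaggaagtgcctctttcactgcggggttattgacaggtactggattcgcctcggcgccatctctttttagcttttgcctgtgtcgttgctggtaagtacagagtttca

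At 3 weeks the question is what neonatal exposure left in the young hippocampus. Most members read higher on the clothianidin arrays: the difference, clothianidin minus vehicle, was above 0 for 80 of the 105 genes, against 49.4% of all rows, and below 0 for 25, against 50.1%. Its median was 0.24 on the log2 scale, from -0.70 to 1.31, against -0.005 over all rows. None of these differences passed the test. In limma with Benjamini-Hochberg adjustment over all rows, 0 of 105 members were called, as were 0 of 22206 rows (0.00%), and the lowest adjusted p of a member was 0.846. At an unadjusted p under 0.05 there were 7 members (6.67%), close to the 5.90% of all rows. The 2 groups did not overlap, with clothianidin higher, in 41 members (39.0%) against 17.2% of all rows, and with clothianidin lower in 8 (7.62%) against 17.2%. Without vehicle array 1 the count above 0 was 69 of 105 and the median was 0.12, against 0.00 over all rows, so the median moved by more than 1.5 times with this array.

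**Figure D1:**
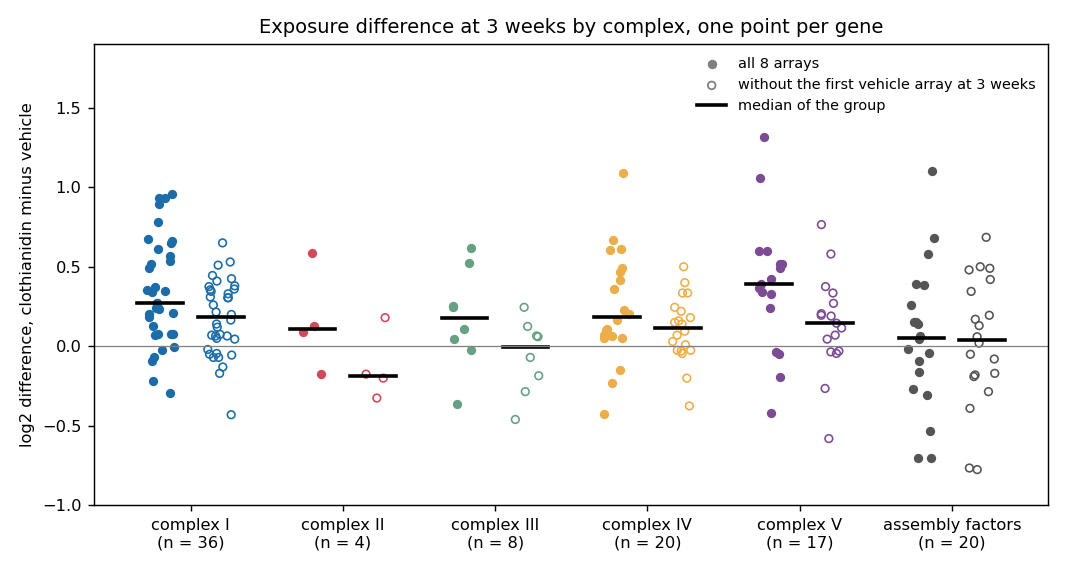
Log2 difference between clothianidin and vehicle at 3 weeks for each of the 105 genes, by complex, with all 8 arrays (filled points) and without vehicle array 1 at 3 weeks (open points). Bars are medians: complex V had the highest median with all arrays, 0.39, and its median was 0.15 without that array.

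Complex I, the NADH dehydrogenase, had 30 of 36 differences above 0 and a median of 0.27, or 27 of 36 and 0.18 without vehicle array 1. Its 30 accessory subunits had a median of 0.27 and its 6 nuclear core subunits, which carry the redox groups, one of 0.42. Without that array the medians were 0.18 and 0.08. Ndufa2, an accessory subunit, read 10.54 and 11.03 on the vehicle arrays and 11.50 and 11.86 on the clothianidin arrays (array 1 first, here and below), a difference of 0.90 ± 0.35 (SE, n = 2 arrays a group; 0.65 without vehicle array 1). Ndufa5, another accessory subunit, read 10.06 and 11.32 under vehicle and 11.90 and 11.35 under clothianidin, a difference of 0.93 ± 0.42 (0.31 without it). Ndufs3, a core subunit, read 12.56 and 13.06 against 13.61 and 13.57, a difference of 0.78 ± 0.31 (0.53 without it). In all 3 genes the lower of the vehicle readings was that of array 1, and the groups did not overlap. Ndufb9, an accessory subunit of the membrane arm, had the largest difference in complex I without overlap: 13.08 and 13.97 in vehicle against 14.49 and 14.47, or 0.95 ± 0.47 (0.51 without vehicle array 1). Ndufs1, the largest core subunit, read 10.25 and 10.89 against 10.68 and 11.00, and these overlapped. Ndufv1, which binds the flavin of complex I, was the only complex I gene without overlap in the other direction, with 13.61 and 13.28 under vehicle and 13.07 and 13.23 under clothianidin.

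Complex II, the succinate dehydrogenase, was less uniform. Sdha, its flavoprotein, read 10.41 and 11.22 under vehicle and 11.10 and 11.70 under clothianidin, and Sdhb, its iron-sulphur subunit, 12.54 and 13.19 against 12.80 and 13.18. Both overlapped between the groups. Sdhc, a membrane anchor, read 9.36 on both vehicle arrays and 9.25 and 9.12 under clothianidin, a difference of -0.17 ± 0.33 with no overlap. The median over the 4 genes was 0.11 with all arrays and -0.19 without vehicle array 1, so its sign turned. The 4 assembly factors of complex II lay lower, with a median of -0.42, or -0.53 without that array. Sdhaf1, which helps iron-sulphur clusters enter Sdhb, read 5.98 and 6.13 under vehicle and 5.26 and 5.45 under clothianidin. Its difference of -0.70 ± 0.26 (-0.78 without vehicle array 1; limma adjusted p = 0.846) was the only one below 0 among the 7 members with an unadjusted p under 0.05. Sdhaf2, which serves the flavin attachment of Sdha, read 8.63 and 8.59 against 8.09 and 8.52. Sdhaf3, a partner of Sdhaf1, read 6.81 and 7.28 against 6.38 and 6.65. Neither of these overlapped, and Sdhaf4 did, with a difference of 0.04.

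Complex III, the cytochrome bc1 complex, had 6 of 8 differences above 0 and a median of 0.18, or 4 of 8 and -0.005 without vehicle array 1. Uqcr10, a small subunit, read 10.56 and 11.55 under vehicle and 11.76 and 11.59 under clothianidin, or 0.62 ± 0.35, and 0.12 without that array. The core proteins went different ways: Uqcrc1 read 11.84 and 11.86 against 12.29 and 11.92, and Uqcrc2 read 9.43 and 9.63 against 9.05 and 9.29. The groups did not overlap in either gene. Cyc1, the cytochrome c1 subunit of complex III, does not match the prefixes and so is not among these 8 members. It read 9.44 and 9.52 under vehicle and 10.31 and 10.22 under clothianidin, with no overlap. Its difference was 0.785 ± 0.44 (limma adjusted p = 0.853), and 0.745 without vehicle array 1.

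Complex IV, the cytochrome c oxidase, had 17 of 20 differences above 0 and a median of 0.18, or 14 of 20 and 0.12 without vehicle array 1. Its 12 general subunits had a median of 0.34 and its 8 tissue isoforms one of 0.08, and without that array these were 0.12 and 0.11. Ndufa4 read 12.59 and 13.77 against 14.07 and 14.47, or 1.09 ± 0.52, and 0.50 without that array. Cox5a, which lies on the matrix side, read 12.08 and 12.69 against 12.68 and 13.02. Cox4i1, the common isoform of subunit IV, read 13.68 and 13.90 against 13.91 and 14.08. Its counterpart Cox4i2, known from lung, read 4.01 and 4.31 against 3.66 and 4.87. The common isoforms Cox6a1, Cox6b1, Cox7a2 and Cox8a had differences of 0.23, 0.61, 0.49 and 0.60, and all of these came down without vehicle array 1, to -0.03, 0.18, 0.14 and 0.34. Cox6a2 and Cox8b, isoforms of heart and skeletal muscle, had differences of -0.42 and -0.15, Cox7a1, of the same tissues, 0.11, and Cox6b2 and Cox8c, known from testis, 0.41 and 0.06. Of these isoforms with restricted expression only Cox7a1 did not overlap, at 4.99 and 5.07 under vehicle and 5.10 and 5.18 under clothianidin, a gap smaller than its standard error of 0.25.

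Complex V had 13 of 17 differences above 0 and a median of 0.39, or 12 of 17 and 0.15 without vehicle array 1. The F1 head and central stalk, where ATP is made, had a median of 0.60 over 5 genes, and 0.34 without that array. Atp5d, a subunit of the central stalk, read 12.86 and 13.44 under vehicle and 14.44 and 13.97 under clothianidin, or 1.05 ± 0.39, and 0.77 without it. The catalytic subunit Atp5b read 16.16 and 16.61 against 17.09 and 16.88, and Atp5a1, its non-catalytic partner, 16.71 and 16.98 against 17.17 and 17.18. Neither overlapped. The 3 genes of the c-ring, which turns with the proton flow, were all above 0, with a median of 0.51 and 0.20 without vehicle array 1. Atp5g1 among them had the largest difference of all members: 10.50 and 11.97 in vehicle, 12.69 and 12.41 under clothianidin, or 1.31 ± 0.52, and 0.58 without vehicle array 1. Atp5pb, of the peripheral stalk that holds the head still, lay the other way, with 12.73 and 13.05 under vehicle and 12.53 and 12.41 under clothianidin.

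The assembly factors, which are not part of the finished complexes, had 11 of 20 differences above 0 and a median of 0.05, and 11 of 20 and 0.04 without vehicle array 1. Cox18, which inserts a mitochondrially encoded subunit into the membrane, read 6.30 and 7.13 under vehicle and 7.74 and 7.89 under clothianidin, or 1.10 ± 0.44, and 0.69 without that array. Cox10, which makes a precursor of the heme A of complex IV, read 8.54 and 8.38 against 8.06 and 8.32. The 85 subunits had 69 differences above 0 and a median of 0.26, or 58 and 0.12 without that array.

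The arrays show where the 3-week difference lay. Each member was set against its own mean over the 8 arrays, and the median of these deviations was taken on every array. It was -0.32 on vehicle array 1 and -0.03 on vehicle array 2 at 3 weeks, and 0.11 and 0.12 on the clothianidin arrays. All rows stayed between -0.041 and 0.042 on every array. Vehicle array 1 gave the lowest of the 8 readings in 48 members (45.7%), against 20.7% of all rows. Within the vehicle group, 81 members read higher on array 2 than on array 1. Array 1 minus array 2 had a median of -0.32 for the members. It was -0.22 for all rows with a mean level of 10 or more, members included, and -0.01 for all rows. The clothianidin arrays at 3 weeks were level, with 50 members higher on array 1 and 54 on array 2.

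**Figure D2:**
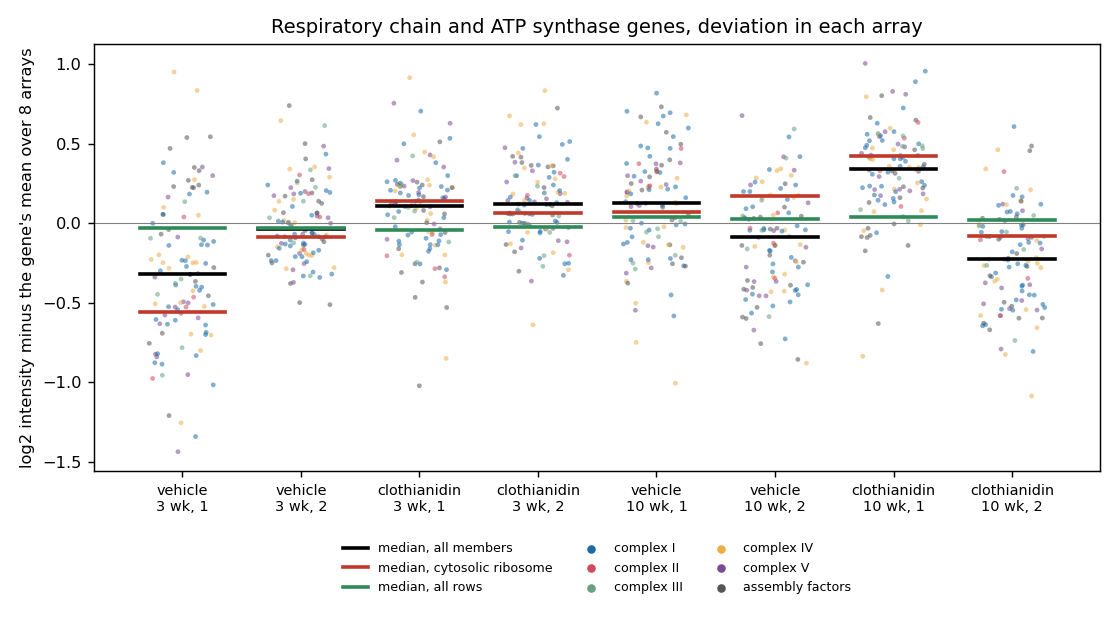
Deviation of each of the 105 genes from its own mean over the 8 arrays, in log2 units, with 1 point per gene and array, coloured by complex. Black bars are member medians, red bars those of 59 cytosolic ribosome genes and green bars those of all rows: vehicle array 1 at 3 weeks lay lowest at -0.32 and clothianidin array 1 at 10 weeks highest at 0.34.

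Each clothianidin array was also set against each vehicle array of the same age. Against vehicle array 1, clothianidin arrays 1 and 2 were higher in 79 and 82 members, with a median of 0.38 each. Against vehicle array 2 they were higher in 63 and 69 members, with medians of 0.09 and 0.13. Clothianidin array 1 and vehicle array 2 both had high Ttr, and clothianidin array 2 and vehicle array 1 both had low Ttr. The pair with high Ttr gave 0.09 and the pair with low Ttr gave 0.38. These pairs share arrays and are no independent comparisons. All 4 medians were above 0, and they differed more between the vehicle arrays than between the clothianidin arrays.

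**Figure D3:**
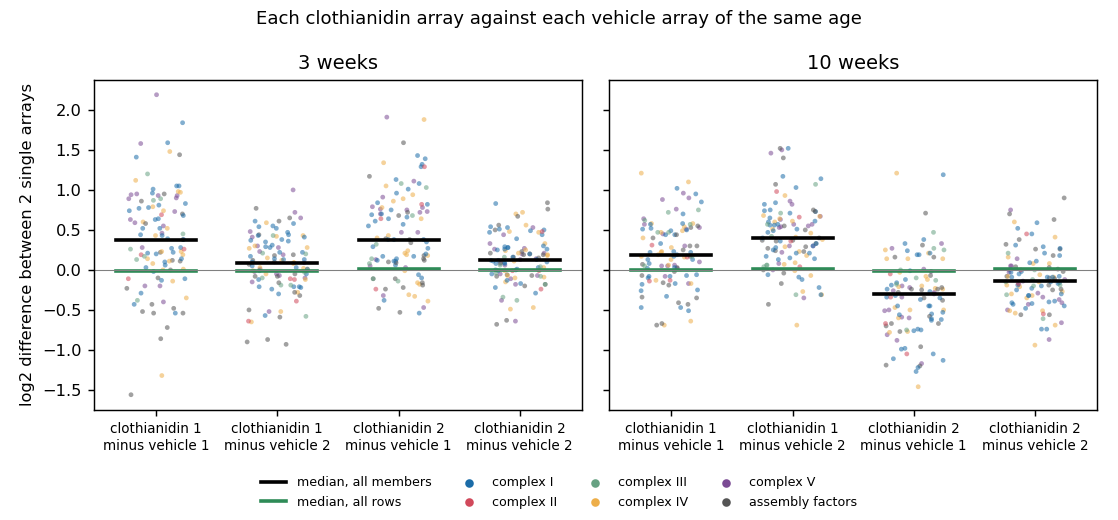
Log2 difference of each of the 105 genes between single arrays, for each clothianidin array minus each vehicle array of the same age, coloured by complex. Black bars are member medians and green bars those of all rows: at 3 weeks the black bars run from 0.09 to 0.38, and at 10 weeks from -0.30 to 0.40.

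The level of a gene was taken into account, since the members are brighter than most rows. At mean levels from 9 to 12, the median difference at 3 weeks was 0.35 for 32 members and 0.08 for 3579 other rows. From 12 to 14 it was 0.24 for 29 members and 0.10 for 1081 other rows, and at 14 or more 0.24 for 13 members and 0.06 for 592 others. Without vehicle array 1 the medians of the members in these classes were 0.16, 0.12 and 0.01, and those of the other rows 0.00, 0.00 and -0.03. From 6 to 9 the median was 0.15 for 19 members and 0.03 for other rows, or 0.16 and -0.015 without that array, and under 6 it was 0.05 for 12 members and -0.065 for other rows, or -0.003 and 0.007. The medians of the members lay above those of other rows in all 5 classes with all arrays, and without vehicle array 1 in all but the class under 6.

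**Figure D4:**
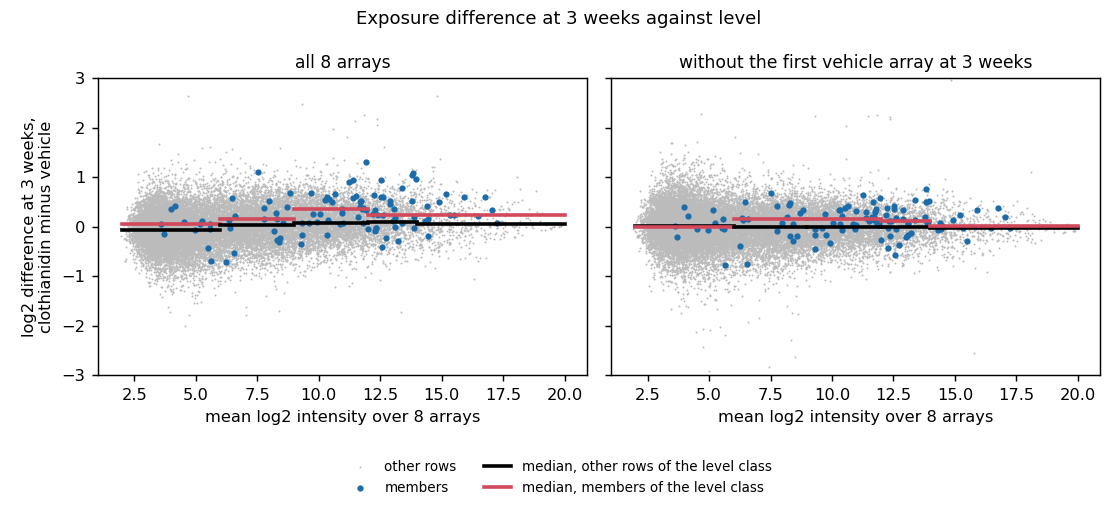
Log2 difference between clothianidin and vehicle at 3 weeks against the mean log2 level over 8 arrays, for the 105 members (blue) and all other rows (grey), with all arrays and without vehicle array 1, rows beyond the axis limits not drawn. Lines are medians in 5 classes of level: from 9 to 12 the members lie at 0.35 and other rows at 0.08 with all arrays, and at 0.16 and 0.00 without that array.

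Other genes of the pathway were read in the same way at 3 weeks, and 0 of them passed the test. The 13 measured genes for cytochromes c and c1 and for coenzyme Q synthesis had 8 differences above 0 and a median of 0.04. Of 25 further assembly factors 12 were above 0, with a median of 0.00, and of 16 regulators of mitochondrial genes 9, with a median of 0.08. Among these regulators Ppargc1a, a coactivator of mitochondrial biogenesis, read 12.65 and 12.72 under vehicle and 12.89 and 13.34 under clothianidin. In the citric acid cycle 14 of 16 genes were above 0, with a median of 0.13, or 10 and 0.11 without vehicle array 1. Without that array the median was -0.025 for the genes of cytochromes c and c1 and coenzyme Q synthesis. It was -0.03 for the further assembly factors and -0.003 for the regulators. The mitochondrial ribosome had 55 of 76 above 0 and a median of 0.18, or 51 and 0.14 without vehicle array 1. The cytosolic ribosome, which has no part in respiration, had 53 of 59 above 0 and a median of 0.36, or 43 and 0.15 without that array. Its median deviation was -0.56 on vehicle array 1 and 0.43 on clothianidin array 1 at 10 weeks, the arrays where the members were lowest and highest. The part of these shared array differences in the members' values was not tested. The 13 genes encoded in mitochondrial DNA were not analysed here.

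At 10 weeks the comparison asks what remained in adult mice. The difference was above 0 for 59 members (56.2%), against 50.7% of all rows, and below 0 for 45 (42.9%), against 48.7%. Its median was 0.02 against 0.005 over all rows. In limma 0 of 105 members passed, as did 0 of 22206 rows (0.00%), and the lowest adjusted p was 0.997. At an unadjusted p under 0.05 there was 1 member (0.952%) against 3.69% of all rows. The groups did not overlap, with clothianidin higher, in 6 members (5.71%) against 15.4% of all rows, and with clothianidin lower in 3 (2.86%) against 15.3%. The clothianidin arrays differed from each other: 95 of 105 members read higher on array 1 than on array 2, with a median difference of 0.58. Clothianidin array 1 was also the only array at 10 weeks with high Ttr, at 18.25. Ttr read 5.24 on clothianidin array 2 and 6.86 and 7.37 on the vehicle arrays. The part of choroid plexus in the values of the members at 10 weeks was not tested. Without clothianidin array 1 the difference from vehicle was above 0 for 22 members, with a median of -0.24, and without clothianidin array 2 for 92, with a median of 0.29. Leaving out vehicle array 1 gave 0.15 and leaving out vehicle array 2 gave -0.05. The median at 10 weeks therefore had no stable direction in these arrays.

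By complex, the medians at 10 weeks were 0.02 for complex I, 0.00 for complex II, 0.18 for complex III, 0.01 for complex IV, 0.03 for complex V and 0.02 for the assembly factors. Ndufa4l2, a paralogue of Ndufa4 known to be induced by low oxygen, read 3.25 and 4.05 under vehicle and 4.46 on both clothianidin arrays. This gene lay near the floor of the arrays: its 3.25 on vehicle array 1 was below that array's lower quartile of 3.92. Its difference of 0.81 ± 0.33 was the 1 with an unadjusted p under 0.05 (limma adjusted p = 0.997). It was 0.41 without vehicle array 1 and 1.21 without vehicle array 2, and at 3 weeks the groups overlapped. Uqcr11, a small subunit of complex III, read 7.77 and 7.81 against 8.52 and 8.02. Ndufb8, an accessory subunit of complex I, read 8.30 and 8.25 against 8.81 and 8.54. Cox10 read 8.06 and 8.07 against 8.31 and 8.77. Cox8b and Sdhaf2 were the other members with clothianidin higher and no overlap, with differences of 0.15 and 0.29. Clothianidin was lower without overlap for Cox4i2, at 5.19 and 4.81 against 4.50 and 4.72, for Cox7a1, at 5.44 and 5.58 against 5.31 and 5.23, and for Sdhaf1, at 5.65 and 5.66 against 5.49 and 5.41. Ndufa2 and Ndufa5, by contrast, overlapped between the groups at 10 weeks, with 11.24 and 11.19 against 11.76 and 10.79 for Ndufa2 and 11.27 and 11.55 against 12.29 and 11.46 for Ndufa5. The same held for Atp5g1, at 12.04 and 11.48 against 12.94 and 11.45, and for Atp5d, at 14.11 and 13.14 against 14.64 and 13.89.

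The exposure differences at 3 and 10 weeks share no array. They were above 0 at both ages for 48 members and below 0 at both for 14, above 0 at 3 weeks and below at 10 weeks for 31, and the reverse for 11, and 1 member had a difference of 0 at an age. Sdhaf1 was the only member without overlap in the same direction at both ages, lower under clothianidin (0.952% of members, against 3.40% of all rows), and 0 members were higher at both (3.48% of all rows). Cox10, Cox7a1 and Sdhaf2 had no overlap at either age and opposite directions (2.86% of members, against 3.83% of all rows). The difference between the exposure effects, 10 minus 3 weeks, was below 0 for 77 of 105 members, against 49.9% of all rows, and above 0 for 28, against 49.6%. Its median was -0.17, against 0.00 over all rows. It passed the limma test for 0 of 105 members and 0 of 22206 rows (0.00%), with a lowest adjusted p of 0.998, and 0 members had an unadjusted p under 0.05 against 3.13% of all rows. Without vehicle array 1 at 3 weeks the count below 0 was 64 and the median -0.09, and without clothianidin array 2 at 10 weeks the median was 0.03.

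Maturation from 3 to 10 weeks was compared over all arrays, 4 at each age. Of all rows 2490 (11.2%) passed the limma test, 6.37% higher and 4.84% lower at 10 weeks, while of the members 1 passed, and that 1 was lower. It was Cox7b2, an isoform of subunit VIIb of cytochrome c oxidase known from testis. Cox7b2 read 6.42, 6.23, 6.50 and 6.26 at 3 weeks and 4.58, 5.44, 4.75 and 4.50 at 10 weeks. All 4 adult arrays lay below all 4 young ones, and the difference was -1.53 ± 0.23 (limma adjusted p = 0.0051). Without vehicle array 1 at 3 weeks it was -1.49 (adjusted p = 0.0178), and it passed without each other array too, with adjusted p from 0.0114 to 0.0296. The fall was -1.31 ± 0.32 in the vehicle arrays alone (limma adjusted p = 0.0823) and -1.75 ± 0.32 in the clothianidin arrays alone (limma adjusted p = 0.043, from 0.0519 to 0.259 in the 6 fits without an array that no longer passed). The difference between these falls, -0.44 ± 0.45, did not pass. Markers of oligodendrocytes moved with age as well: 6 of 6 measured were lower at 10 weeks and passed, with a median of -1.56, and their summed level was 17.97 to 18.99 on the arrays at 3 weeks and 17.22 to 17.43 at 10 weeks. Single markers listed for other sources passed as well: Alas2 and Calb2 fell by 1.27 and 0.92, and Drd2 rose by 0.88 (limma adjusted p = 0.0186, 0.0205 and 0.0306). Alas2 was the 1 marker measured of 4 listed for blood. Calb2 was listed for thalamus, where 2 of 4 markers were higher at 10 weeks and the median was -0.18. Drd2 was listed for striatum, where 3 of 4 measured markers were higher, with a median of 0.29. The part of oligodendrocytes and of these other sources in the fall of Cox7b2 was not tested.

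**Figure D5:**
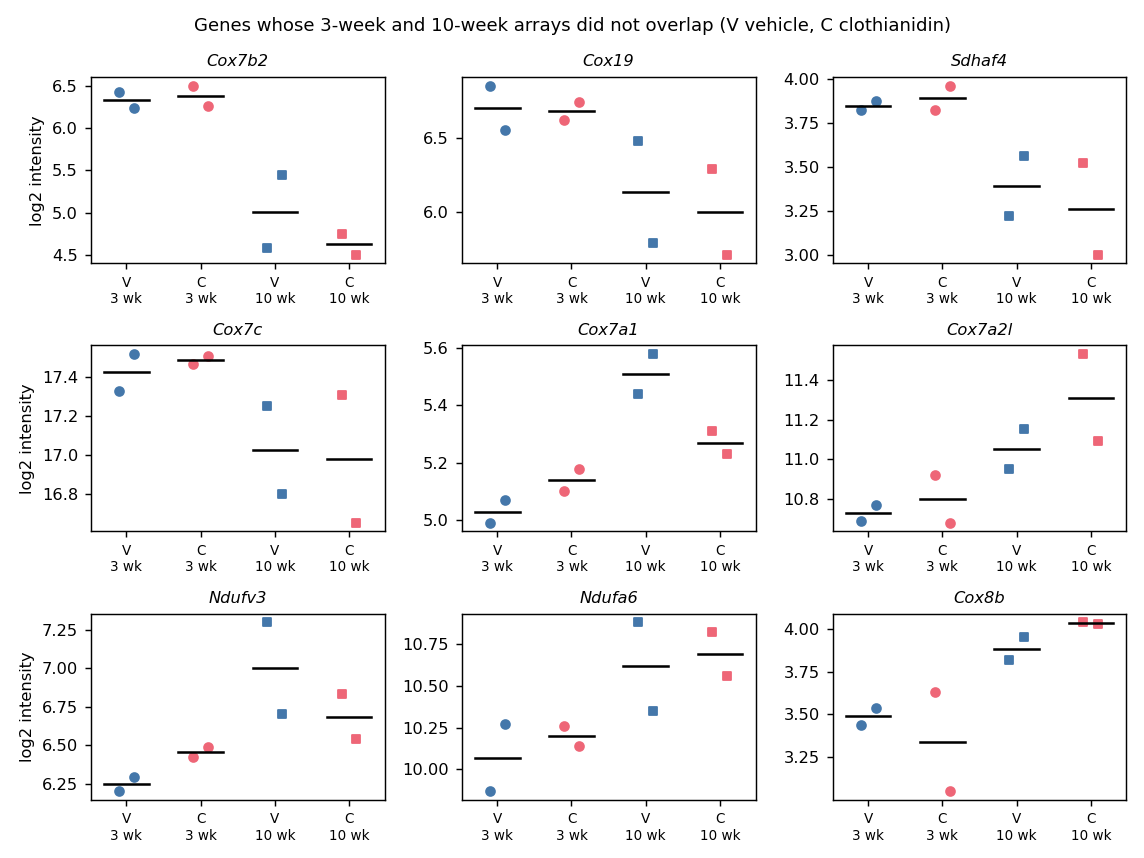
Log2 intensity on each of the 8 arrays for the 9 members whose arrays at 3 and 10 weeks did not overlap, with vehicle (V, blue) and clothianidin (C, red) apart and bars at the group means. Each panel has its own axis: only Cox7b2, with all adult arrays at or below 5.44 and all young ones at or above 6.23, passed the limma test.

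Over all 105 members the age difference was above 0 for 61 (58.1%), against 55.9% of all rows, and below 0 for 44 (41.9%), against 43.8%. Its median was 0.065, against 0.068 over all rows. Without vehicle array 1 at 3 weeks these were 51 and 54, with a median of -0.01. The sign of the median also turned after quantile normalisation, to -0.095, and the median was 0.00 with each array centred on its median. At an unadjusted p under 0.05 there were 13 members (12.4%) against 29.5% of all rows. Members without overlap numbered 5 (4.76%) with adult arrays higher, against 11.8% of all rows, and 4 (3.81%) with adult arrays lower, against 7.89%. Between the vehicle arrays, in the model of all 8 arrays, 0 members passed, against 0.315% of all rows. In that model 8 had an unadjusted p under 0.05 (7.62%) against 19.0%. A fit of only the vehicle arrays called 0 members and 0 rows. The median in vehicle arrays was 0.15, above 0 for 71 members (67.6%) against 54.9% and below 0 for 34 against 44.7%. Without overlap 24 members (22.9%) were higher and 14 (13.3%) lower, against 26.9% and 20.1%. Without vehicle array 1 at 3 weeks 58 members were above 0 in this comparison and the median was 0.04, and after quantile normalisation its sign turned, to -0.013 with 50 above 0. In the clothianidin arrays 1 passed, Cox7b2, which was lower, against 0.563% of all rows, of which 0.221% were higher and 0.342% lower. There 4 members (3.81%) had an unadjusted p under 0.05, against 17.7%, and the median was -0.05, above 0 for 50 members (47.6%) against 55.5% and below 0 for 55 against 44.1%. Without overlap 13 (12.4%) were higher and 11 (10.5%) lower, against 30.1% and 21.6%. Leaving out clothianidin array 1 or 2 at 10 weeks moved the median in clothianidin arrays to -0.30 or 0.23.

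The other members without overlap between the ages did not pass. Cox8b read 3.44, 3.54, 3.63 and 3.05 at 3 weeks and 3.82, 3.95, 4.04 and 4.03 at 10 weeks (0.55 ± 0.20, limma adjusted p = 0.0961), near the floor of the arrays. Cox7a1 read 4.99 to 5.18 at 3 weeks and 5.23 to 5.58 at 10 weeks, and Cox7a2l, which joins complexes III and IV into supercomplexes, 10.68 to 10.92 and 10.95 to 11.53. In complex I the accessory subunits Ndufa6 and Ndufv3 had differences of 0.52 ± 0.21 and 0.49 ± 0.20. Cox19, a copper-related assembly factor of complex IV, read 6.85, 6.55, 6.62 and 6.74 at 3 weeks and 6.48, 5.79, 6.29 and 5.71 at 10 weeks (-0.62 ± 0.23, limma adjusted p = 0.0963). Sdhaf4, which chaperones Sdha, had a difference of -0.54 ± 0.20, and Cox7c, a small subunit of complex IV, of -0.46 ± 0.21. All 4 assembly factors of complex II were below 0, with a median of -0.32, and all 4 subunits of complex II were above 0, with a median of 0.14, or 2 of 4 with a median of 0.04 without vehicle array 1 at 3 weeks. Sdha had the largest difference of these, 0.56 ± 0.24, and Sdhb 0.15 ± 0.21.

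In the wider pathway, some genes that were not members passed the age comparison in limma, which called 11.2% of all rows. The shares of the short lists rest on few genes and were not tested against that background. Atpaf1, a chaperone for the F1 head, rose from 8.03, 9.03, 8.70 and 8.95 at 3 weeks to 10.22, 9.74, 10.32 and 9.82 at 10 weeks (1.35 ± 0.26, adjusted p = 0.0119). Nubpl, an iron-sulphur protein of complex I assembly, fell by 0.80 (adjusted p = 0.042), and these were the 2 calls among 25 further assembly factors, 1 in each direction. Polg2, a subunit of the mitochondrial DNA polymerase, rose by 0.77 (limma adjusted p = 0.0489) and was the 1 call among 16 regulators. Dlst and Suclg2, of the citric acid cycle, fell by 1.13 and 0.83 (limma adjusted p = 0.0127 and 0.0301), the 2 calls among its 16 genes. The mitochondrial ribosome had 6 calls among 76 genes, all higher at 10 weeks, and the cytosolic ribosome had 1 among 59, also higher. Their median differences were 0.11 and 0.28, against 0.068 over all rows. Without vehicle array 1 at 3 weeks these medians were 0.05 and 0.145, against 0.065 over all rows. Among the 13 genes for cytochromes c and c1 and for coenzyme Q synthesis 0 passed, and 5 had an unadjusted p under 0.05, against 29.5% of all rows. Of these 13 genes 11 were above 0, against 55.9% of all rows, with a median of 0.45. With each array left out in turn, an alternative added for these genes after seeing the data, Atpaf1 passed in all 8 fits (limma adjusted p from 0.0088 to 0.0488). Dlst passed in all but the fit without clothianidin array 2 at 10 weeks (0.0526). Nubpl passed only without vehicle array 2 or clothianidin array 1 at 3 weeks and otherwise had an adjusted p up to 0.138, Suclg2 only without vehicle array 2 at 3 weeks and otherwise up to 0.0973, and Polg2 in none, with 0.0507 to 0.168. The chaperone Atpaf1 thus rose with age while the median of the 17 complex V genes was 0.07, or -0.15 without vehicle array 1 at 3 weeks.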

How the data were processed

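The authors deposited log2 intensities, 1 value per transcript cluster (row) and array, from whole-transcript arrays, made with RMA per the submitters' processing notes. No version is given, and whether all arrays were normalised together is not given in the sources used here. Per the labels, each array used 250 ng of total RNA whose RNA integrity number exceeded 7. Gene symbols came from the platform annotation, and all 105 members were matched by gene ID to the RefSeq table of GRCm38.p6. All 22206 rows, with no filter, entered 1 linear model with group means in limma 3.58.1 under R 4.3.3, with 4 residual degrees of freedom. It gave 6 contrasts, tested two-sided with Benjamini-Hochberg adjustment over all rows and a threshold of 0.05. It was run on simulated data with independent rows, the same spread for every row and no shift of a whole array. That run therefore cannot show how the model behaves under array-wide shifts. Errors of differences are the model's standard errors. An exact permutation test of 2 against 2 arrays cannot go below p = 0.333. Precision is limited by 2 arrays a group.

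Genes were named by rule: fixed genes and isoforms of each complex, all members past the threshold, and, per complex, the largest difference in each direction without overlap. Ndufs3, Atp5d, Sdhaf2, Sdhaf3 and the remaining members without overlap or with an unadjusted p under 0.05 were named after their values were seen. The members and lists were chosen with earlier results of these data known. Alternatives left out each array, added the replicate number as a block, or changed threshold, filter, scaling, prior, weights or arrays fitted.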

Additional observations from a re-analysis of the deposited data

Results flagged for a closer look

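The exposure differences of Cox10, Cox7a1 and Sdhaf2 had opposite signs at the 2 ages, with no overlap between vehicle and clothianidin at either age. This held for 3 members (2.86%) and for 3.83% of all rows. For Cox10 the clothianidin arrays were lower at 3 weeks (-0.27) and higher at 10 weeks (0.47), and the effects differed by 0.74 ± 0.39. For Sdhaf2 they were lower at 3 weeks (-0.30) and higher at 10 weeks (0.29), and the effects differed by 0.59 ± 0.38. For Cox7a1 they were higher at 3 weeks (0.11) and lower at 10 weeks (-0.24), and the effects differed by -0.35 ± 0.36. The limma test of these differences did not pass, with an adjusted p of 0.998 for each and unadjusted p of 0.0821, 0.145 and 0.351.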

How the results depend on the processing

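No member was called in either exposure comparison or in their difference under any alternative run. Counts of members above 0 ranged, with each array left out in turn, from 69 to 81 at 3 weeks and from 22 to 92 at 10 weeks. They ranged from 15 to 54 for the difference of the exposure effects, from 42 to 81 for age over all arrays, from 57 to 76 in vehicle arrays and from 24 to 85 in clothianidin arrays. The medians ranged from 0.12 to 0.35, -0.24 to 0.29, -0.44 to 0.03, -0.085 to 0.19, 0.04 to 0.40 and -0.30 to 0.23 in the same order. Calls with an array left out stayed at 1 for age over all arrays and ranged from 0 to 1 in clothianidin arrays. Under an adjusted p of 0.1, 4 members were called for age over all arrays (Cox7b2, Ndufaf2, Cox8b and Cox19), against 4389 of 22206 rows. In vehicle arrays 1 member was called (Cox7b2), against 736 rows. With only rows at or above the median level, which drops Cox7b2, 0 members were called for age over all arrays and 0 in clothianidin arrays, of the 93 members kept. Among all rows kept, 1143 and 23 were called in these comparisons. After quantile normalisation 38 members were above 0 for age over all arrays and 28 in clothianidin arrays, and the medians for exposure were 0.16 at 3 weeks and -0.036 at 10 weeks. The labels do not say that replicate numbers pair the samples. Deviations of same-numbered arrays correlated over all rows at -0.043 between the groups at 3 weeks and 0.138 at 10 weeks, and over the members at -0.176 and 0.293, and between the ages at -0.09 in vehicle and 0.071 in clothianidin arrays over all rows and at -0.167 and 0.14 over the members. The numbers were therefore not taken as pairs. With a replicate block 0 members were called for age in clothianidin arrays (Cox7b2, limma adjusted p = 0.078), against 17 of all rows. No other count of members called moved. Of 1776 values of single named genes with an array left out, 178 changed sign, as did 33 of 1870 under other alternatives. None of these had passed the threshold. A fit of only the arrays compared does not apply to the contrasts that use all arrays. Rows near the floor of the arrays, such as Cox8b, Sdhaf4 and Ndufa4l2, were not shown to be above background.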
